A study of Mus musculus with 6 samples.

Results

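The miR-130 and miR-301 family is a group of mouse microRNAs (miRNAs) whose 3p arms, one of the strands cut from each hairpin, carry a common seed. Its members, chosen by name and not by their values, were mmu-miR-130a-3p, mmu-miR-130b-3p, mmu-miR-301a-3p and mmu-miR-301b-3p (mmu for mouse, left out in places), which are 4 of the 1836 miRNAs listed in the deposited count tables. The CNV group held RPE-choroid-sclera complexes (retinal pigment epithelium, RPE, with the vascular and fibrous layers behind it) of male mice aged 7 to 8 weeks, taken 7 days after 25 laser spots per eye (532 nm, 100 mW, 0.1 s, 50 µm). These burns are used to provoke choroidal neovascularization (CNV), the growth of new vessels from the choroid. The control group held the same tissue from male mice of the same age without laser, and no strain or genotype was given in the labels. Each group had 3 libraries (n = 3), each from 4 pooled eyes, and the labels do not say which pools shared a mouse. Tests therefore speak of differences among these pools, whose spread can be partly technical.

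A miRNA guides the Argonaute complex to messenger RNAs that pair with its seed, bases 2 to 8 from the 5′ end, and lowers their output, so miRNAs with the same seed can share targets. In human endothelial cells miR-130a is known as a proangiogenic miRNA that represses the homeobox genes GAX (MEOX2) and HOXA5, which restrain vessel growth. Members of the family also repress PPARG, a regulator of fat cell formation, in human and mouse fat cell precursors.

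The mature sequences below, from RefSeq on mouse build GRCm38.p6, are shown because the seed defines the family and the rest of the strand separates its members. By name, 3 of the 4 members and all 4 of the other strands, the 5p arms, matched an entry. Capitals mark bases 2 to 8, and miR-130c and miR-6389 are the other listed miRNAs with the same seed.
miR-130a-3p: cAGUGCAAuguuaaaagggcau
miR-130b-3p: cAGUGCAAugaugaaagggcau
miR-301a-3p: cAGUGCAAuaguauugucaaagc
miR-130c: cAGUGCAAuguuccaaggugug
miR-6389: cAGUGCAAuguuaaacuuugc
miR-130a-5p: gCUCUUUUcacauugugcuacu
miR-130b-5p: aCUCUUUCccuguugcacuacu
miR-301a-5p: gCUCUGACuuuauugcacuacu
miR-301b-5p: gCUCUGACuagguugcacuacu

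The 3 member strands shown share the seed AGUGCAA, and miR-301b-3p is named without its sequence. The 5p strands fall into several, with miR-301a-5p and miR-301b-5p sharing CUCUGAC. Counted from 1 at the 5′ end, miR-130a-3p and miR-130b-3p differ by 2 bases, U11A and A13G. Over the 22 bases that can be compared, miR-301a-3p differs from miR-130a-3p at 10 and from miR-130b-3p at 11. How many mismatches were allowed in read matching was not stated in the labels. Reads shared between miR-130a-3p and miR-130b-3p therefore cannot be told apart from their own. The same limit applies to miR-301b-3p, whose strand could not be compared with that of miR-301a-3p or of the others. None of the 3 members with over 50 counts in all had counts identical to those of another miRNA.

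In GRCm38 the miR-130a gene lies on the minus strand of chromosome 2 (chr2:84741115-84741178), where the GENCODE M21 annotation places no other gene. The miR-301a gene (Mir301) lies on the plus strand of chromosome 11 (chr11:87113004-87113089) in an intron of Ska2, which encodes a protein of the spindle and kinetochore complex. The miR-130b (chr16:17124061-17124142) and miR-301b (chr16:17124400-17124496) genes lie 257 bases apart on the minus strand of chromosome 16, both in an intron of the annotated protein-coding gene 2610318N02Rik. Both strands of the 3 precursors with enough reads are drawn in capitals in the hairpins below, the 5p arm first, because the balance between the arms differed among them.
Mir130a: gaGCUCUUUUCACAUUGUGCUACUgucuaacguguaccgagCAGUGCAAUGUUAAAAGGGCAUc
Mir130b: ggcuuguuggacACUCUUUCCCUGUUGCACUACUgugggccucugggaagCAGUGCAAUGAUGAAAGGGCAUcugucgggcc
Mir301: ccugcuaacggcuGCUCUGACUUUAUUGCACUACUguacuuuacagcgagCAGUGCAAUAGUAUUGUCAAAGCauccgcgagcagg

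The CNV libraries held 5321436 to 5820315 counts and the control libraries 5057142 to 12839386, with control replicate 2 the deepest. Marker miRNAs of the tissue were abundant: summed levels of the RPE markers miR-204 and miR-211 (4 strands) were 4571 to 6543 CPM in CNV libraries and 6838 to 7039 in control libraries, and those of the endothelial miR-126a (2 strands) 35434 to 42864 and 35232 to 45051. Here CPM (counts per 1000000) refers to the library total times a TMM factor (trimmed mean of M-values), and the sums run over a whole marker list. Photoreceptor markers (3 miRNAs) summed to 24726 to 49453 CPM in CNV and 49328 to 75748 in control. Neuron markers (5) summed to 8221 to 13185 and 14830 to 21327, so neural markers were counted in every pool. Fibroblast and mural cell markers (5) summed to 110026 to 133369 CPM in CNV and 93011 to 106250 in control, leukocyte markers (5) to 700 to 1014 and 544 to 662, erythrocyte markers (3) to 954 to 4164 and 1310 to 2107, and skeletal muscle markers (3) to 57413 to 90552 and 34290 to 91076. The RPE and neuron sums were lower in every CNV pool than in any control pool, and the fibroblast and mural cell and the leukocyte sums higher. The other sums overlapped between groups. Within the leukocyte list miR-150-5p went the other way, lower in every CNV pool than in any control pool, as for 11.3% of the tested miRNAs. How often such sums separate was not tested. No marker of any list was at 0 in all libraries. In such bulk tissue, fewer cells of a type and less RNA per cell cannot be told apart, and the part of these shifts in the family's values was not tested.

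By counts, the family was carried by miR-130a-3p. Its counts were 818, 745 and 1049 in CNV replicates 1 to 3 and 1040, 3062 and 884 in control replicates 1 to 3. It made up 94.1 ± 0.652% of the summed counts of the 4 members in CNV and 94.5 ± 0.922% in control (SD, n = 3 each). The share of miR-301a-3p was 3.37 ± 0.561% in CNV and 3.73 ± 0.672% in control, and that of miR-130b-3p 2.27 ± 0.0299% and 1.60 ± 0.267%. Every CNV share of miR-130b-3p (2.25% to 2.31%) lay above every control share (1.29% to 1.80%), but the exact 95% binomial interval of each CNV library overlapped that of each control library. Examples are CNV replicate 2 with 18 of 798 counts (1.34% to 3.54%) and control replicate 3 with 12 of 927 (0.671% to 2.25%). These intervals cover counting error only, and how often such shares separate in other families was not tested. In CPM, miR-130b-3p overlapped between the groups. The share of miR-301b-3p was 0.262 ± 0.102% in CNV and 0.178 ± 0.0696% in control. In each of the 6 libraries the order was miR-130a-3p, miR-301a-3p, miR-130b-3p and miR-301b-3p, with no overlap between neighbours over all libraries in CPM.

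The question put to each member was whether its level differed between CNV and control tissue, and no tested member passed. In the quasi-likelihood test of edgeR, adjusted by Benjamini-Hochberg over 997 small RNAs (threshold 0.05), 0 of the 3 members with enough reads passed, against 0.301% of all small RNAs tested, and 0 of 3 reached an unadjusted p of 0.05, against 17.6% of the 541 tested miRNAs. With DESeq2 and with limma-voom 0 of 3 passed as well. Of the 3, 1 had a positive and 2 a negative fold change. Their median was -0.25 on the log2 scale, beside 0.01 over all tested miRNAs. The precision of these tests limits what they can show, since the 95% intervals below reach changes in both directions.

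The proangiogenic mmu-miR-130a-3p was at 159, 148 and 180 CPM in CNV replicates 1 to 3 and at 179, 220 and 180 CPM in control replicates 1 to 3. CNV replicates 1 and 2 lay below all controls, CNV replicate 3 lay among them, and the groups overlapped. The means were 163 ± 16.3 CPM in CNV and 193 ± 23.2 in control (SD, n = 3 each). The log2 fold change was -0.25 (SE 0.16), a 0.841-fold level with a 95% interval of 0.649 to 1.09, and edgeR's adjusted p was 0.495. Scaled by total counts alone, its log2 fold change was -0.39, where the median over all tested miRNAs was -0.14, and without CNV replicate 3 it was -0.41 (adjusted p 0.185, unadjusted 0.0351 in edgeR). At a mean of 178 CPM it ranked 160 among the 541 tested miRNAs, and 135 of them had a lower fold change.

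The intronic mmu-miR-301a-3p, which represses the NF-kB inhibitor NKRF in human cancer cells, was at 5.25, 6.37 and 5.67 CPM in CNV replicates 1 to 3, against 8.62, 8.05 and 6.12 CPM in control replicates 1 to 3. Control replicate 3 lay below CNV replicate 2, the only crossing between the groups. The means were 5.76 ± 0.563 CPM in CNV and 7.60 ± 1.31 in control (SD, n = 3 each), with a log2 fold change of -0.41 (SE 0.24), a 0.754-fold level with a 95% interval of 0.520 to 1.09. Its adjusted p was 0.428 in edgeR's test and 0.346 to 0.720 over the alternatives. These values rested on 27 to 33 counts per CNV library and 30 to 112 per control library.

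The member mmu-miR-130b-3p had 20, 18 and 25 counts in CNV replicates 1 to 3 and 20, 55 and 12 in control replicates 1 to 3. Its levels were 3.89, 3.58 and 4.30 CPM in CNV and 3.45, 3.95 and 2.45 CPM in control. Control replicate 2 lay between the CNV pools, so the groups overlapped. The log2 fold change was 0.22 (SE 0.27), a 1.16-fold level with a 95% interval of 0.753 to 1.79, and edgeR's adjusted p was 0.732. Scaled by total counts alone, its log2 fold change was 0.06, and without control replicate 3 it was 0.03 (adjusted p 0.993 in edgeR).

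Its neighbour on chromosome 16, mmu-miR-301b-3p, was too rare for the filter and was not tested. It had 2, 3 and 2 counts in CNV replicates 1 to 3 and 2, 8 and 1 in control replicates 1 to 3, or 0.389, 0.597 and 0.344 CPM against 0.345, 0.575 and 0.204 CPM. The groups overlapped, and the ratio of the group rates, 7 counts in CNV over 11 in control, was 0.980 with an exact 95% interval of 0.322 to 2.77 for counting error. The counts cannot tell ratios within that interval apart, and it leaves out the spread between pools, so it is not a limit of detection. Without control replicate 2 the log2 ratio was 0.64, in place of -0.03 with all libraries. Whether the few counts of miR-301b-3p include reads of the more abundant members could not be told.

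**Figure D1:**
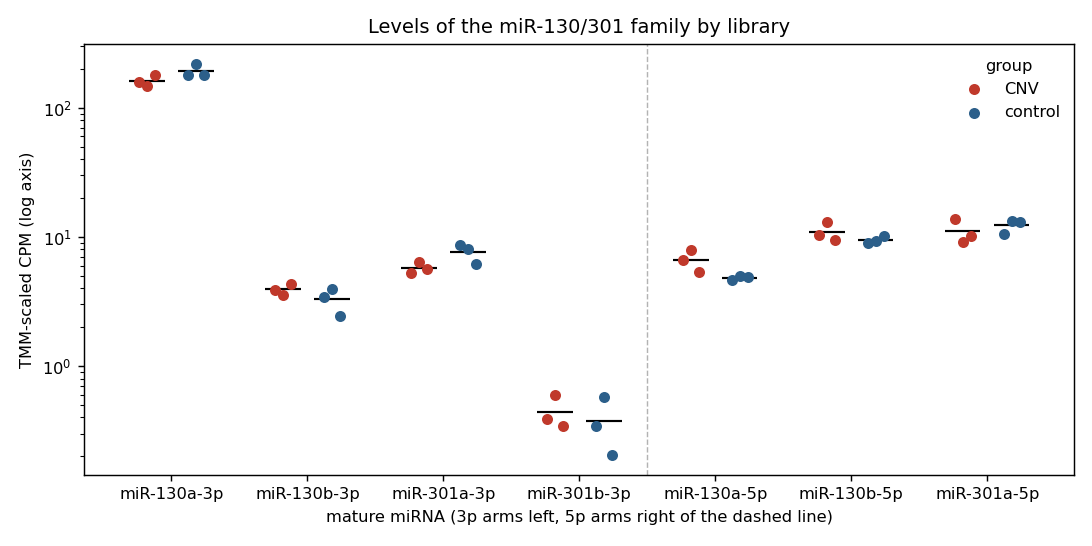
TMM-scaled CPM (log axis) of the 4 members and of the 3 countable 5p arms in each library, CNV red and control blue, with the group mean as a bar (n = 3 each). The 130a-3p points sit between 148 and 220 CPM, far above every other arm, and miR-130a-5p is the arm whose CNV points all lie above its control points.

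The strand in use differed between precursors. From miR-130a, 3p reads were 96.0%, 94.9% and 97.1% of both arms in CNV replicates 1 to 3 and 97.5%, 97.8% and 97.4% in control replicates 1 to 3. From miR-130b they were 27.4%, 21.4% and 31.2% in CNV and 27.8%, 29.7% and 19.4% in control. From miR-301a they were 27.6%, 41.0% and 35.9% in CNV and 45.0%, 37.8% and 31.9% in control. For both miR-130b and miR-301a the 5p arm thus had more reads than the 3p arm that carries the family seed, in all 6 libraries. For miR-301a the exact 95% interval included equal use in CNV replicate 2 (30.0% to 52.7%) and control replicate 1 (35.6% to 54.8%). How well each strand is captured in library making was not tested.

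The rare miR-130a-5p, whose seed CUCUUUU is not that of the family, was at 6.61, 7.96 and 5.33 CPM in CNV replicates 1 to 3 and 4.66, 4.96 and 4.90 CPM in control replicates 1 to 3. Every CNV pool exceeded every control pool, as was the case for 12.8% of the tested miRNAs. The log2 fold change was 0.45 (SE 0.24), a 1.36-fold level with a 95% interval of 0.931 to 1.99, which did not pass (edgeR adjusted p 0.389, and 0.262 to 0.805 over the alternatives). Without CNV replicate 2 the log2 fold change was 0.25, and scaled by total counts alone 0.29. The sign is opposite to that of its partner miR-130a-3p.

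The ratio of 3p to 5p counts, which needs no scaling between libraries, was 24.1, 18.6 and 33.8 in the CNV pools for miR-130a, against 38.5, 44.4 and 36.8 in the control pools. Every CNV ratio was below every control ratio, and the mean log2 ratio was 4.63 ± 0.43 in CNV and 5.31 ± 0.14 in control (SD, n = 3 each), a difference of -0.68. In a two-sided exact permutation test p was 0.1, the smallest that 3 against 3 allows, and 0.3 adjusted over the 3 precursors. Among the 156 miRNAs with both arms tested, the ratio was lower without overlap in 8.33%, and 5 had a lower difference than miR-130a. The 5p counts behind these ratios were 31 to 40 in CNV and 24 to 69 in control.

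For the other precursors the ratios overlapped. The mean log2 ratio of miR-130b was -1.47 ± 0.37 in CNV and -1.56 ± 0.44 in control (exact permutation p = 0.7, adjusted 0.7). That of miR-301a was -0.92 ± 0.44 in CNV and -0.70 ± 0.40 in control (exact permutation p = 0.6, adjusted 0.7). The more abundant 5p arms behind them did not pass either. The level of miR-130b-5p was 10.3, 13.1 and 9.45 CPM in CNV and 8.97, 9.34 and 10.2 CPM in control (log2 fold change 0.21, SE 0.22). That of miR-301a-5p was 13.8, 9.15 and 10.1 CPM in CNV and 10.5, 13.2 and 13.1 CPM in control (log2 -0.16, SE 0.24), and both overlapped between groups. Their adjusted p was 0.690 and 0.792 in edgeR's test. Without CNV replicate 2 the log2 fold change of miR-130b-5p was 0.01, and scaled by total counts alone 0.06. That of miR-301a-5p was -0.36 without CNV replicate 1 and -0.31 scaled by total counts alone. The last arm, miR-301b-5p, had 1 count in CNV replicate 2, 1 in control replicate 2 and 1 in control replicate 3, and 0 in the other libraries, where a count of 0 allows up to 0.516 to 0.583 CPM.

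**Figure D2:**
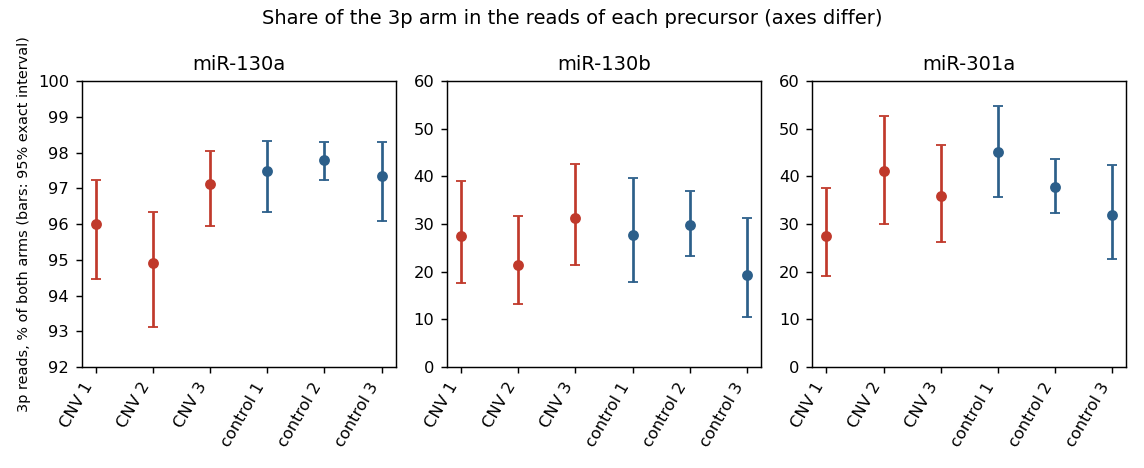
Reads of the 3p arm as a percentage of both arms of miR-130a, miR-130b and miR-301a in each library, CNV red and control blue, with exact 95% binomial intervals (the vertical axis of miR-130a runs from 92% to 100%). The CNV points of miR-130a lie between 94.9% and 97.1%, below the control points between 97.4% and 97.8%, while those of the others overlap.

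Set on a single scale, the family's strands followed the order miR-130a-3p, then miR-301a-5p and miR-130b-5p (means of 11.7 and 10.2 CPM over the 6 libraries), then miR-301a-3p and miR-130a-5p (6.68 and 5.74 CPM), then miR-130b-3p and miR-301b-3p. The ranges of miR-301a-5p and miR-130b-5p over libraries overlapped, as did those of miR-301a-3p and miR-130a-5p. Counts were not divided by length, as the mature strands with an entry are 22 or 23 bases long.

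**Figure D3:**
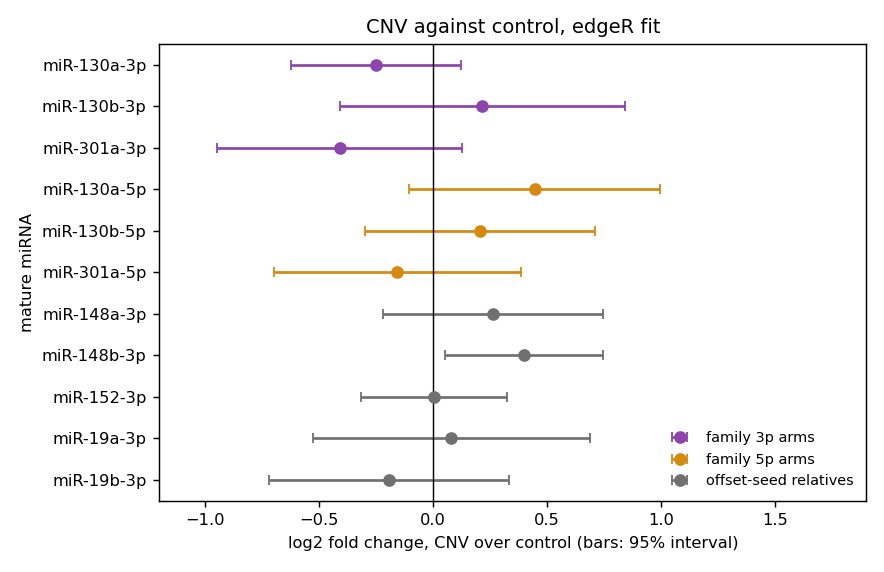
Log2 fold change of CNV over control with its 95% interval from the edgeR fit, for the tested 3p arms, 5p arms and offset-seed relatives. Every interval of the family spans 0, and that of miR-148b-3p lies above 0 before adjustment.

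The other listed miRNAs with the seed AGUGCAA added little. The same seed is carried by miR-721 and miR-6341, which were not listed, so their levels are unknown. Of the listed ones, miR-130c had 1 count in all, in control replicate 2. The other, miR-6389, had 0, 0 and 1 counts in CNV replicates 1 to 3 and 2, 6 and 5 in control replicates 1 to 3. Too rare to be tested, it had a ratio of group rates of 0.118 for 1 count over 13, with an exact 95% interval of 0.00279 to 0.789 for counting error only. The summed level of the 4 members was 169, 159 and 191 CPM in CNV replicates 1 to 3 and 192, 233 and 189 CPM in control replicates 1 to 3, and the groups overlapped at CNV replicate 3.

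Some other miRNAs, abundant ones among them, hold 6 of the 7 seed bases in a shifted frame, so that part of their target sites can be common. They are shown with the shared 6 bases in capitals.
miR-148a-3p: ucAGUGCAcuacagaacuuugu
miR-148b-3p: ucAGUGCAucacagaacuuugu
miR-152-3p: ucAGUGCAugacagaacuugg
miR-19a-3p: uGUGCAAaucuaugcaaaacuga
miR-19b-3p: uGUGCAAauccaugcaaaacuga

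The miR-148 and miR-152 group, known for repressing the DNA methyltransferase Dnmt1, summed to 46652, 43349 and 45901 CPM in CNV replicates 1 to 3 and 28912, 41424 and 46125 CPM in control replicates 1 to 3. Per library that was 241 to 277 times the summed 3p arms of the miR-130 and miR-301 family in CNV. In control it was 151 to 244 times, with overlap at control replicate 3. These are ratios of counts, and how well each miRNA is captured in library making was not tested. None of the 5 relatives passed edgeR's test, against 0.301% of all small RNAs tested, and 1 had an unadjusted p under 0.05, against 17.6% of the tested miRNAs. That was miR-148b-3p, at 2176, 2005 and 1723 CPM in CNV and 1396, 1510 and 1569 CPM in control, where all CNV pools lay above all controls, as for 12.8% of the tested miRNAs (log2 fold change 0.40, SE 0.15, adjusted p 0.232 in edgeR, and log2 0.25 scaled by total counts alone). The miR-19 strands, members of the oncogenic miR-17-92 cluster and its paralog, summed to 121 to 166 CPM in CNV and 120 to 210 in control. Log2 fold changes were 0.26 for miR-148a-3p, 0.01 for miR-152-3p, 0.08 for miR-19a-3p and -0.19 for miR-19b-3p, and the signs of miR-152-3p, miR-19a-3p and miR-19b-3p turned under other settings. Without control replicate 1 the log2 fold change of miR-148a-3p was 0.06, and with total counts alone 0.13.

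**Figure D4:**
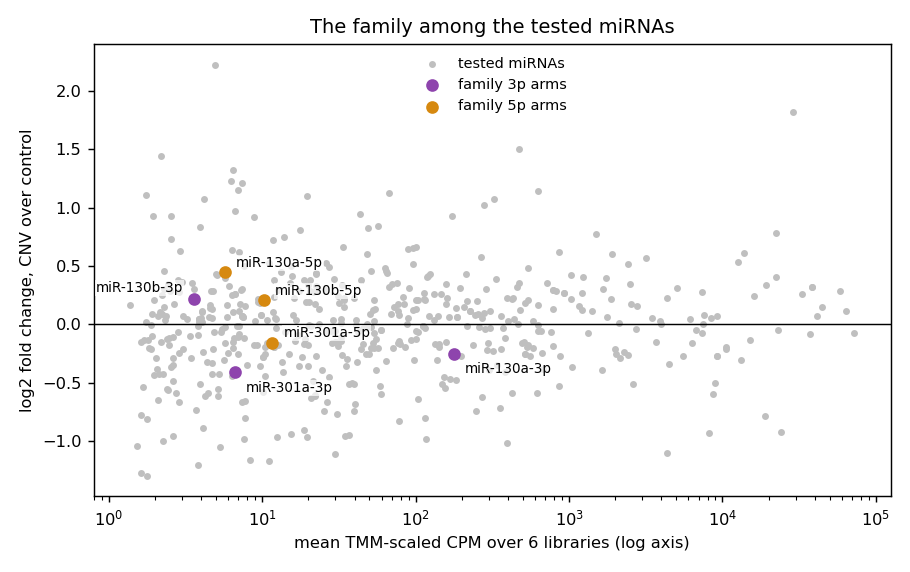
Log2 fold change of CNV over control against mean TMM-scaled CPM (log axis) for the 541 tested miRNAs (grey), with the tested 3p arms (purple) and 5p arms (orange) of the family. The family lies between -0.41 and 0.45, inside the spread of the other miRNAs at the same level.

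For context, a list of 24 angiogenesis-linked miRNAs, chosen with earlier results of these data known, was set beside the family. All 24 were tested and 0 passed edgeR's test in either direction, against 0.301% of all small RNAs tested. Of the 24, 2 had an unadjusted p under 0.05, against 17.6% of the tested miRNAs. Fold changes were positive in 15 and negative in 9, where 48.8% of the tested miRNAs were negative, and the median log2 fold change was 0.04, beside 0.01 over all tested miRNAs. By smallest p, miR-210-3p, a strand induced by hypoxia, had levels of 339, 252 and 427 CPM in CNV replicates 1 to 3 and 594, 477 and 463 CPM in control replicates 1 to 3. All CNV pools were below all controls, as for 11.3% of the tested miRNAs (log2 fold change -0.59, SE 0.22, adjusted p 0.224 in edgeR). Over the alternatives the adjusted p of miR-210-3p ran from 0.0307 to 0.594. It was under 0.05 only in edgeR without a filter on low counts, where 88 small RNAs were called, against 3 in the main fit. The vascular miR-221-3p, which restrains the stem cell factor receptor KIT in human endothelial cells, was at 770, 604 and 527 CPM in CNV and 489, 427 and 444 CPM in control. All its CNV pools were above all controls, as for 12.8% of the tested miRNAs (log2 0.48, SE 0.18, adjusted p 0.227 in edgeR), though not when scaled by total counts alone (log2 0.32), and without CNV replicate 1 the log2 fold change was 0.31. The miR-17-92 member miR-18a-5p was at 9.34, 9.95 and 6.36 CPM in CNV and 6.90, 5.39 and 4.29 CPM in control, with overlap at CNV replicate 3 (log2 0.62, SE 0.28, adjusted p 0.280 in edgeR).

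Profiles over the 6 libraries were compared by the root mean square difference of log2 CPM, each profile centred on its own mean, as a description. Among 373 other miRNAs of at least 10 CPM, those closest to miR-130a-3p were miR-32-5p (0.0658), miR-195a-5p (0.0812) and the endothelial miR-126a-5p (0.0830), where the median difference was 0.302. The level of miR-126a-5p was 1981, 1648 and 2193 CPM in CNV replicates 1 to 3 and 2374, 2666 and 2052 CPM in control replicates 1 to 3. As for miR-130a-3p, the lowest pool was CNV replicate 2 and the highest control replicate 2. The same pools were lowest and highest for miR-32-5p and miR-195a-5p, a likeness built into picking the closest profiles. The sum of both miR-126a strands, most of it miR-126a-3p (mean 37251 CPM), did not share that order. It was lowest in control replicate 1 (35232 CPM) and highest in control replicate 3 (45051 CPM). Closest to miR-130b-3p among 374 miRNAs were miR-511-3p (0.0768), miR-431-5p (0.126) and let-7c-1-3p (0.131), with a median of 0.337. Closest to miR-301a-3p were miR-339-3p (0.133), miR-339-5p (0.157) and miR-150-5p (0.163), with a median of 0.368. Within the family the differences were 0.211 between miR-130a-3p and miR-301a-3p, 0.288 between miR-130a-3p and miR-130b-3p and 0.352 between miR-130b-3p and miR-301a-3p. For miR-130b-3p and miR-301a-3p counting error is part of these profiles, as single libraries held as few as 12 and 27 counts.

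**Figure D5:**
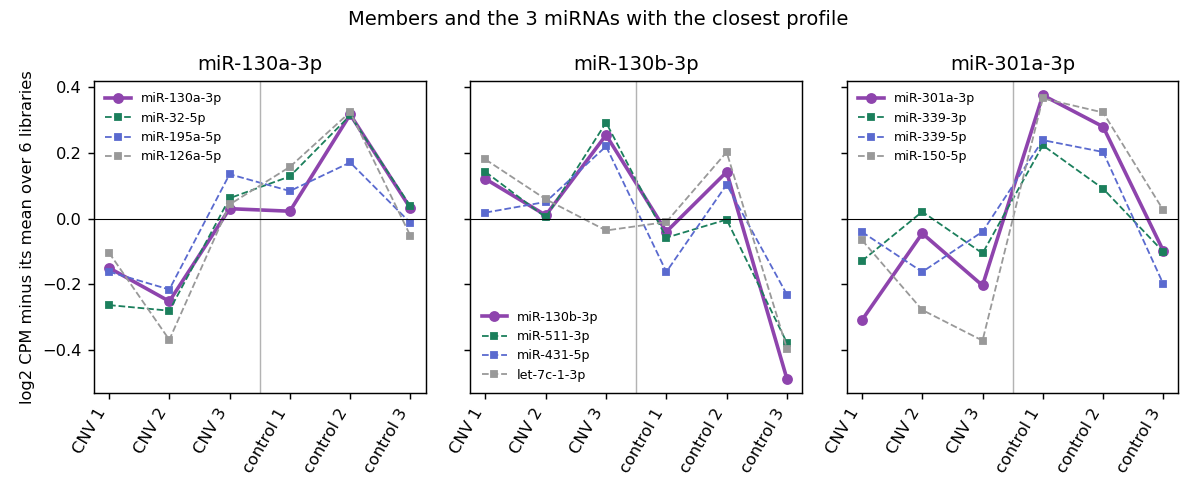
Log2 CPM minus its mean over the 6 libraries for each tested member (solid purple) and the 3 miRNAs closest to it (dashed), with CNV libraries left of the grey line and control libraries right of it; lines only join the points of a miRNA. The profile of miR-130a-3p is lowest in CNV replicate 2 and highest in control replicate 2, that of miR-130b-3p lowest in control replicate 3, and that of miR-301a-3p highest in control replicate 1.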

How the data were processed

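Small RNAs of 14 to 40 nt were sequenced from 3 CNV and 3 control pools, per the labels' protocols. The authors' deposited tables give raw read counts for 1836 miRNAs and 498 tRNA-derived small RNAs per library. Per the submitters' processing notes Bowtie was used. Its version, settings, genome build and treatment of reads that match several miRNAs are not given in the sources read here. The deposited CPM column was left out, as its 2 classes rest on different totals.

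Counts were analysed with edgeR 4.0.16 in R 4.3.3. The filter filterByExpr (minimum count 10, minimum total 15) kept 997 small RNAs, 541 of them miRNAs, which were TMM-scaled together and fitted with no covariate by the quasi-likelihood test, with Benjamini-Hochberg adjustment and a threshold of 0.05. Intervals are 95% intervals of that fit, exact binomial for shares, and exact for ratios of low counts. The last 2 cover counting error only, and the floor of a count of 0 is 3 counts per library. Log2 profiles used a prior count of 2. DESeq2 1.42.0, limma-voom (limma 3.58.1), other scalings and filters, a replicate block and leaving out each library were alternatives.

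The text names the members, their 5p arms, listed miRNAs with the same seed, the offset-seed relatives, the 3 angiogenesis-linked miRNAs with the smallest p, and per member the 3 closest profiles. The members and lists were chosen with earlier results of these data known.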

Additional observations from a re-analysis of the deposited data

How the results depend on the processing

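The 3 tested members kept their direction and stayed outside the threshold under every alternative run, with log2 fold changes of -0.41 to -0.19 for miR-130a-3p, 0.03 to 0.30 for miR-130b-3p and -0.57 to -0.31 for miR-301a-3p. Only miR-130a-3p of the 3 could be tested at a mean of at least 20 CPM. The number of small RNAs called, 3 in all, was 6 with miRNAs only, 88 with no filter, 0 at a mean of at least 20 CPM, 38 with DESeq2 and 0 to 24 with a library left out. With the replicate number as a block it was 36, and the members' log2 fold changes were -0.25, 0.24 and -0.39. Same-numbered libraries deviated together with correlations of 0.29, 0.03 and 0.17, and each CNV replicate correlated best with the control of its own number. The lead was small for CNV replicate 2 (0.03, against 0.01 with control replicate 1). It was also small for CNV replicate 3 (0.17, against 0.15 with control replicate 2). Control replicate 2, though, correlated best with CNV replicate 3 (0.15). Whether the numbers mark pairs was not settled, and the main fit used no pairing. Without 1 library, the log2 rate ratio of miR-301b-3p ran from -0.29 to 0.64, and the arm ratio difference from -0.91 to -0.48 for miR-130a, -0.16 to 0.29 for miR-130b (below 0 without CNV replicate 3 or control replicate 3) and -0.42 to 0.018 for miR-301a (above 0 without CNV replicate 1). The near-zero value of miR-152-3p turned to -0.027 with relative log expression factors, -0.13 with total counts, -0.076 with no filter, -0.021 at 20 CPM and -0.027 with DESeq2, and ran from -0.15 to 0.028 without 1 library. That of miR-19a-3p turned to -0.077 with total counts and -0.0075 with no filter and ran from -0.16 to 0.31 without 1 library, and that of miR-19b-3p ran from -0.42 to 0.015. The cause was not tested. With 12 to 55 counts of miR-130b-3p and 1 to 8 of miR-301b-3p per library, depth limits these members most.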
